A study of Mus musculus with 6 samples.

Results

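The Hedgehog pathway genes examined here are Gli1, Gli2, Gli3, Ptch1, Smo, Sufu, Hhip, Cdon and Boc, which encode the receptors, the signal transducer, the inhibitor and the transcription factors of the pathway. They were chosen by gene symbol, by matching the Ensembl gene IDs of the expression files to the mouse GENCODE annotation. Of the 9 genes 8 were among the 24938 genes listed, and Hhip is not analysed here. RNA sequencing gave their transcript levels in NIH3T3 cells, a long-established mouse embryonic fibroblast line that is widely used to study Hedgehog signalling. The study compared 3 libraries from NIH3T3 cells that overexpress F-CircAE, labelled as an AML1-ETO related fusion circular RNA, with 3 libraries from wild type NIH3T3 cells. The labels name no Hedgehog ligand or agonist, no vector control, no clone and no time point, so what the overexpression procedure does cannot be told apart from what the circular RNA does. Nothing in the labels ties a library to its own culture, and the p-values therefore reflect the spread among these 6 libraries alone, which may be technical.

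Hedgehog signalling works by releasing a brake. Without ligand, the receptor PTCH1 keeps the membrane protein SMO out of the primary cilium, and SUFU holds the GLI transcription factors, with GLI2 and GLI3 processed towards repressors. Ligand binding to PTCH1, helped by the co-receptors CDON, BOC and GAS1, frees SMO, and GLI2 and GLI3 then act as activators. Gli1, Ptch1 and Hhip are themselves GLI target genes, so in fibroblasts the Gli1 and Ptch1 transcripts are commonly read as a measure of pathway activity.

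In these cells all 8 Hedgehog genes were expressed, and none of them passed the test for a difference between F-CircAE overexpression and wild type. The receptor gene Ptch1 and the target gene Gli1 were at 0.928 and 0.929 of their wild type mean in the overexpressing cells, and Smo was at 0.984. The lowest of these ratios was 0.845, for the co-receptor gene Boc, and the highest was 1.07, for the co-receptor gene Cdon. Estimates were below 0 for 7 of the 8 genes. Without overexpression replicate 1 this was 4 of 8, and with libraries weighted by their estimated quality it was 6 of 8.

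Values are in FPKM, fragments scaled by the authors to gene length and library size. Whole reads recovered from these values numbered 16968281 to 21842328 in the overexpression libraries and 19000124 to 20935055 in the wild type libraries. Overexpression replicate 1 was the shallowest. Wild type replicates 1 and 2 were far more alike than any other pair, with a chi-square per gene of 1.46, against 5.15 to 25.1 in the other 14 pairs, where counting error alone gives 1. They were entered as separate libraries. If they share a culture or an RNA, the wild type SDs and the intervals below are too small. The first principal component (35.5% of the variance) put overexpression replicate 1 and wild type replicate 3 at one end (-16.6 and -11.2) and wild type replicates 1 and 2 at the other (13.9 and 13.3). Of 12 fibroblast markers listed 10 were in the files and all 10 were tested, but their levels were uneven. Col1a1, a collagen chain, was at 515 ± 65.9 FPKM in overexpressing cells and 567 ± 65.0 in wild type cells (SD, n = 3 each), whereas Thy1, a surface glycoprotein, lay between 1.203 and 2.89 FPKM in overexpressing cells and between 0.873 and 3.61 in wild type cells. Log2 fold changes were below 0 for 8 of the 10 and above 0 for 2, with a median of -0.18, and none passed the test. The lowest was that of Dcn (-0.93, limma adjusted p = 0.842). Dcn was at 24.1 ± 9.18 FPKM in overexpressing cells and 47.2 ± 18.1 in wild type cells (SD, n = 3 each), and the groups overlapped. The 4 neural and 4 endothelial markers in the files were below 1 FPKM in every library. Of the epithelial, haematopoietic and muscle markers, Krt14 and Cdh1 (2 of 4), Cd68 (1 of 6) and Des (1 of 3) were tested. Krt14, a keratin, lay at 3.78 to 5.17 FPKM in overexpressing cells and 2.37 to 6.06 in wild type cells, and Cd68, a macrophage marker, at 4.56 to 6.34 in overexpressing cells and 4.32 to 5.96 in wild type cells. The 12 mitochondrially encoded genes in the files, whose share can follow library composition, all had log2 fold changes above 0, with a median of 0.26, and none passed the test.

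Differences were tested with limma on log2(FPKM + 1) over all 12222 genes that exceeded 1 FPKM in at least 3 libraries, and all 8 Hedgehog genes were among them. Log2 fold changes are of FPKM + 1, overexpression over wild type, and understate the change of genes at a few FPKM. At a Benjamini-Hochberg adjusted p of 0.05, 0 of the 8 genes were called (limma adjusted p between 0.842 and 0.947), as were 0 of the 12222 genes tested (0.0%). At an unadjusted p of 0.05 the counts were 0 of 8 Hedgehog genes and 632 of all genes (5.17%), and limma-voom on the recovered reads also called 0 genes, with 0 of 8 and 740 of 14472 at an unadjusted p of 0.05. Each Hedgehog gene rested on 186 to 2155 reads per library, so that counting error alone gives a coefficient of variation of 7.33% at the lowest and 2.15% at the highest of these.

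**Figure D1:**
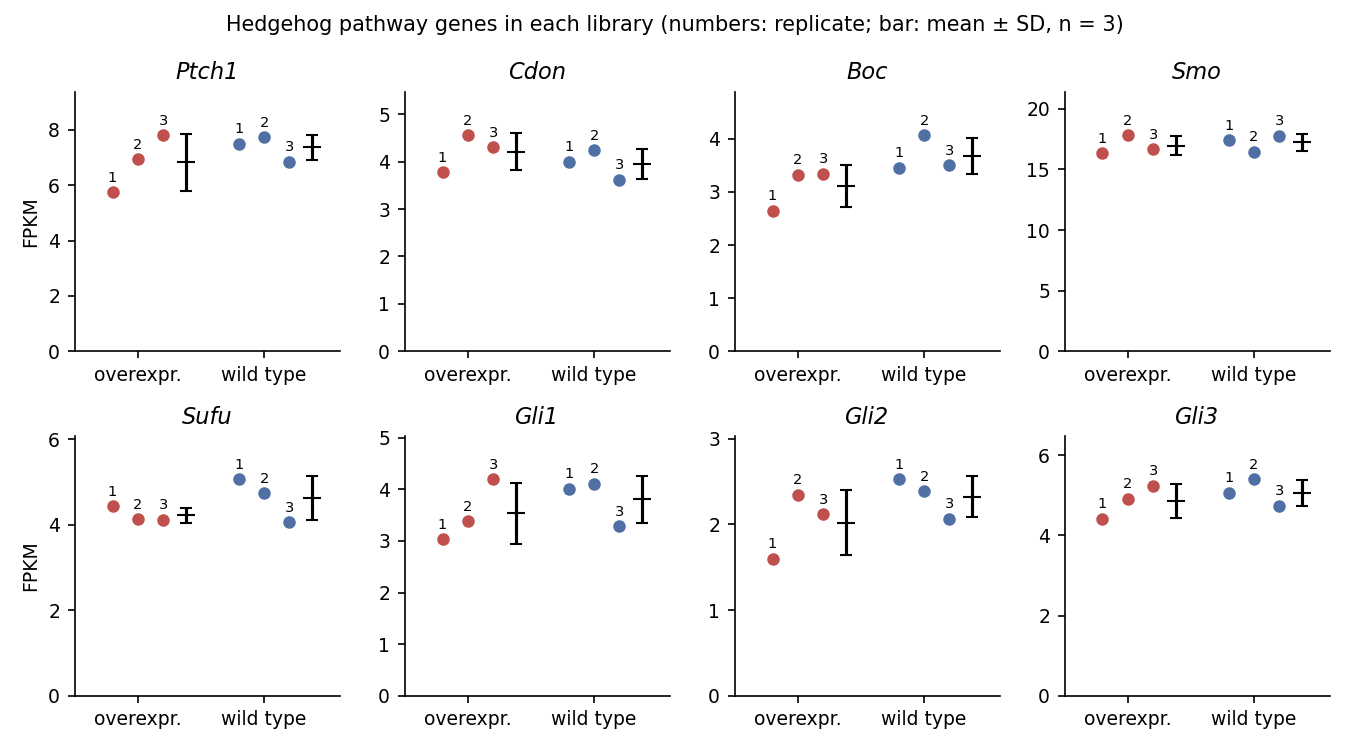
FPKM (vertical axis, from 0) of the 8 Hedgehog pathway genes in the 3 F-CircAE overexpression libraries (red) and the 3 wild type libraries (blue), with replicate numbers, and the mean ± SD of each group in black (n = 3). The groups overlap in every gene but Boc, where the overexpression libraries reach 3.34 FPKM and the wild type libraries begin at 3.45.

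Ptch1, the ligand receptor and a GLI target (ENSMUSG00000021466, chromosome 13, 63508328 to 63573598, minus strand, mm10), had 5.75, 6.93 and 7.80 FPKM in overexpression replicates 1, 2 and 3, against 7.4999, 7.73 and 6.85 FPKM in wild type replicates 1, 2 and 3. Overexpression replicate 1 was the lowest library and overexpression replicate 3 the highest, so the wild type range lay inside that of the overexpressing cells. The means were 6.83 ± 1.03 and 7.36 ± 0.46 FPKM (SD, n = 3 each), and the log2 fold change of -0.10 had a 95% interval of -0.35 to 0.15 (limma adjusted p = 0.864). Without overexpression replicate 1 it was 0.0003. It was -0.19 without overexpression replicate 3, -0.15 without wild type replicate 3 and -0.11 with libraries weighted by their estimated quality.

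Cdon, an immunoglobulin superfamily co-receptor that binds the ligand (ENSMUSG00000038119, chromosome 9, 35421128 to 35507652, plus strand), had 3.77, 4.55 and 4.30 FPKM with overexpression, against 3.997, 4.24 and 3.62 FPKM in wild type. It was the only one of the 8 genes with an estimate above 0. The log2 fold change of 0.07 had a 95% interval of -0.13 to 0.28 (limma adjusted p = 0.881). Without overexpression replicate 1 it was 0.13, and the 2 remaining overexpression libraries lay above all 3 wild type libraries. With that library left out the groups did not overlap in Boc and Cdon, 2 of the 8 Hedgehog genes, beside 21.0% of all tested genes.

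Boc, a paralog of Cdon with the same role at the receptor (ENSMUSG00000022687, chromosome 16, 44485049 to 44558897, minus strand), had 2.65, 3.33 and 3.34 FPKM with overexpression, against 3.45, 4.07 and 3.50 FPKM in wild type. All 3 overexpression libraries lay below all 3 wild type libraries. This made Boc the 1 gene of 8 (12.5%) whose groups did not overlap, beside 1405 of the 12222 genes tested (11.5%), a share near that of all genes. Overexpression lay below wild type in 4.69% of the tested genes and above it in 6.81%. Without wild type replicate 3, the groups did not overlap in Boc, Sufu and Gli2, 3 of the 8, beside 39.7% of all tested genes. The means were 3.11 ± 0.39 and 3.68 ± 0.34 FPKM (SD, n = 3 each), and the log2 fold change of -0.19 had a 95% interval of -0.42 to 0.05 (limma adjusted p = 0.842). Wild type replicates 1 and 2 differed by 16.3% of their mean in Boc, the widest gap between this pair among the 8 genes, beside 2.46% to 6.53% in the other 7.

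Smo, the seven-pass membrane protein that carries the signal into the cell (ENSMUSG00000001761, chromosome 6, 29735503 to 29761365, plus strand), had 16.3, 17.8 and 16.7 FPKM with overexpression, against 17.4, 16.4 and 17.8 FPKM in wild type. The groups overlapped almost fully. Its means were 16.9 ± 0.77 and 17.2 ± 0.70 FPKM (SD, n = 3 each), and its log2 fold change of -0.02 had the narrowest interval of the 8 genes, -0.16 to 0.12 (limma adjusted p = 0.947).

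Sufu, which encodes the inhibitor that binds GLI proteins (ENSMUSG00000025231, chromosome 19, 46396896 to 46488804, plus strand), had 4.43, 4.14 and 4.12 FPKM with overexpression, against 5.06, 4.74 and 4.05 FPKM in wild type. The overexpression libraries were close together, and wild type replicate 3 lay below all of them. The log2 fold change of -0.10 had a 95% interval of -0.30 to 0.10 (limma adjusted p = 0.850). Without wild type replicate 3 it was -0.17 (limma adjusted p = 0.313). With libraries weighted by their estimated quality it was -0.18 and passed (limma adjusted p = 0.043), in a fit that called 2241 of 12222 genes (18.3%). That fit gave weights of 0.278, 4.64 and 0.593 to overexpression replicates 1, 2 and 3. Wild type replicates 1, 2 and 3 had weights of 2.155, 2.57 and 0.236. The fit therefore leaned on overexpression replicate 2 and on the near-identical wild type replicates 1 and 2.

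Gli1, the activator that is itself induced by the pathway (ENSMUSG00000025407, chromosome 10, 127329882 to 127341974, minus strand), had 3.03, 3.39 and 4.19 FPKM with overexpression, against 4.01, 4.11 and 3.29 FPKM in wild type. The highest and the lowest library were both from overexpressing cells. The means were 3.54 ± 0.60 and 3.81 ± 0.45 FPKM (SD, n = 3 each), and the log2 fold change of -0.09 had a 95% interval of -0.37 to 0.19 (limma adjusted p = 0.891). Without overexpression replicate 1 it was -0.006. With libraries weighted by their estimated quality it was -0.18, with a 95% interval of -0.33 to -0.03. It did not pass there (limma adjusted p = 0.090), in the fit that called 18.3% of all tested genes. In GENCODE, Gli1 exons overlap exons of Arhgap9 and Gm47200 on the other strand, by 327 bases counted over both genes together. The part of each was not separated, and without strand the reads there cannot be told apart. Gm47200 is not analysed here. Arhgap9, which encodes a GTPase-activating protein, had 7.04, 6.21 and 6.12 FPKM with overexpression, against 4.91, 4.45 and 10.5 FPKM in wild type, and its part in the Gli1 values was not tested.

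Gli2, the main activator at the onset of signalling (ENSMUSG00000048402, chromosome 1, 118834132 to 119053619, minus strand), had 1.599, 2.35 and 2.12 FPKM with overexpression, against 2.53, 2.39 and 2.07 FPKM in wild type. Overexpression replicate 1 stood below the other 5 libraries, which lay between 2.07 and 2.53 FPKM. Its log2 fold change of -0.14 had a 95% interval of -0.43 to 0.14 (limma adjusted p = 0.850), and was -0.04 without overexpression replicate 1.

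Gli3, the source of the main repressor form (ENSMUSG00000021318, chromosome 13, 15463235 to 15730026, plus strand), had 4.42, 4.91 and 5.24 FPKM with overexpression, against 5.06, 5.40 and 4.74 FPKM in wild type. The groups overlapped. Its log2 fold change of -0.05 had a 95% interval of -0.24 to 0.14 (limma adjusted p = 0.900), and was 0.004 without overexpression replicate 1. Its exons share 188 bases with Gm6556 on the other strand, which was between 0.209 and 0.330 FPKM in the 6 libraries.

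**Figure D2:**
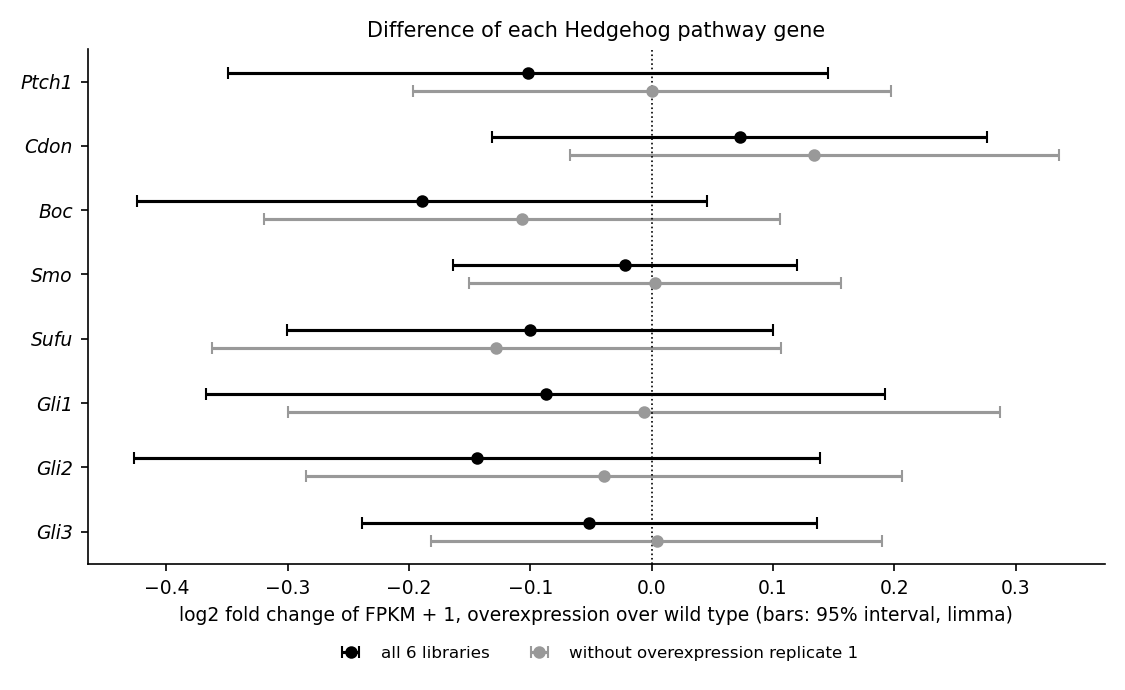
Log2 fold change of FPKM + 1 (horizontal axis), F-CircAE overexpression over wild type, with 95% limma intervals, for each Hedgehog pathway gene, from all 6 libraries (black) and without overexpression replicate 1 (grey). Every interval spans 0, and the estimates of Ptch1, Smo, Gli1 and Gli3 lie within 0.01 of 0 once that library is left out.

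The intervals give the range of change on this scale for each gene alone, unadjusted over genes. Over the 8 genes they ran from a fold of 0.744, the lower limit of Gli2, to a fold of 1.21, the upper limit of Cdon, both of FPKM + 1. On the log2 scale these limits were -0.43 and 0.28. With 0.1 added in place of 1 they were wider, at -0.61 for Gli2 and 0.34 for Cdon. The intervals therefore do not bound the change of FPKM itself. All of these intervals assume 3 independent libraries in each group. With wild type replicates 1 and 2 averaged, the limits on the scale of FPKM + 1 were wider, at -0.47 for Gli2 and 0.35 for Cdon. The median log2 fold change of the 8 genes was -0.09, beside 0.0084 over all 12222 genes tested, and 46.8% of all tested genes had estimates below 0, beside 7 of the 8. Without overexpression replicate 1 the median of the 8 genes was -0.0028. It was -0.16 without wild type replicate 3 and -0.09 with libraries weighted by their estimated quality.

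The libraries of a group differed among themselves. Overexpression replicate 1 was the lowest of the 6 libraries in 6 of the 8 Hedgehog genes, beside 3076 of all 12222 tested genes (25.2%). It was the highest library in 3197 tested genes (26.2%) and in 0 of the 8. Wild type replicate 3 was the lowest in the other 2, Cdon and Sufu. Summed over the 8 genes, the FPKM were 42.0, 47.4 and 47.8 in the overexpression libraries, against 49.0, 49.1 and 45.9 in the wild type libraries. Overexpression replicate 1 was also the lowest library in 6 of the 10 fibroblast markers in the files, whose summed FPKM were 1752, 2168 and 2155 with overexpression, against 2513, 2503 and 1964 in wild type. None of these markers was at 0 in all libraries, and their part, like that of the lower depth of overexpression replicate 1, in the Hedgehog values was not tested. In bulk libraries, fewer cells that express a gene and less RNA per cell cannot be told apart.

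**Figure D3:**
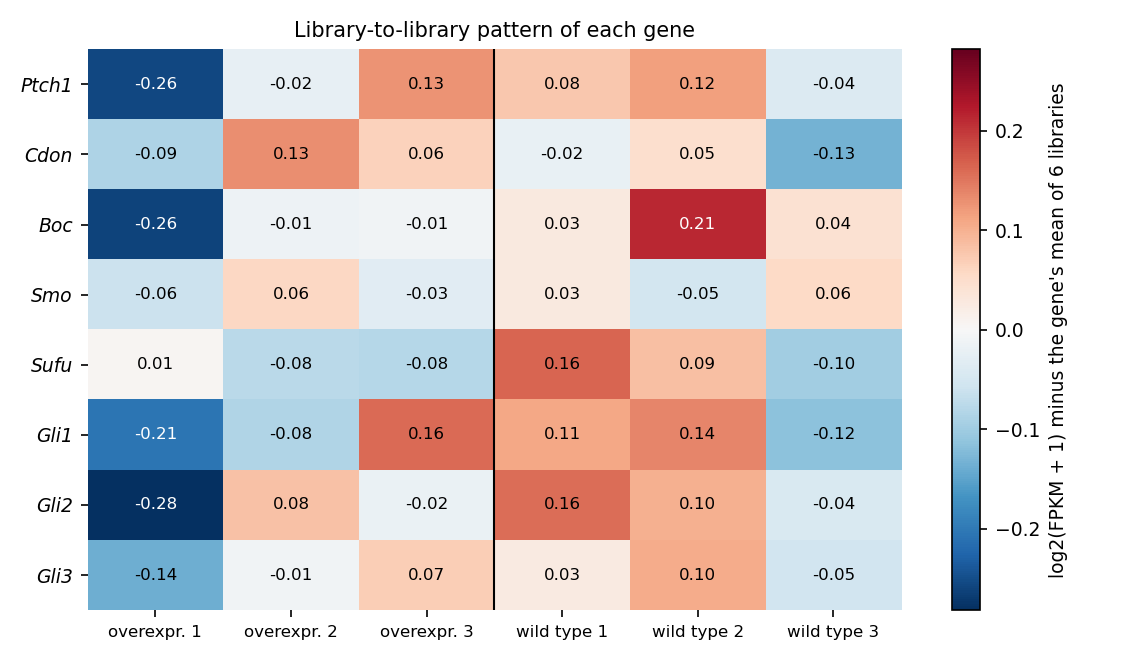
Deviation of log2(FPKM + 1) from each gene's mean over the 6 libraries (colour and printed value) for the 8 Hedgehog pathway genes (rows), with the F-CircAE overexpression libraries left of the line and the wild type libraries right of it. Overexpression replicate 1 is low in Ptch1, Boc, Gli1 and Gli2, with deviations of -0.21 to -0.28, whereas Smo stays within 0.06 of its mean in every library.

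FPKM is scaled to gene length, so levels can be compared across genes, but their order depends on the lengths used. The whole reads fitted a length of 8745 bases for Ptch1, against 14185 in GENCODE exons. These lengths were 3665 against 4995 for Gli1, 6945 against 7691 for Sufu and 4456 against 4451 for Boc. The order below is that of the deposited values. At GENCODE lengths Ptch1, Gli1 and Sufu would be lower, and Ptch1 would lie below Gli3, whose fitted length was that of GENCODE. The rest of the order at GENCODE lengths was not worked out. Smo had the highest level of the 8 genes, at a mean of 17.1 FPKM over the 6 libraries (higher than 72.0% of tested genes), followed by Ptch1 at 7.09 FPKM. Both stood above the next gene in every library and their ranges did not overlap with it. Gli3 (4.96 FPKM), Sufu (4.42), Cdon (4.08), Gli1 (3.67) and Boc (3.39) followed with overlapping ranges between neighbours, so the order of neighbours is not resolved beyond the spread between libraries. The lowest library of Gli3 (4.42 FPKM) lay above the highest of Gli1 (4.19 FPKM) and of Boc (4.07 FPKM). Gli2 was lowest, at 2.17 FPKM (higher than 15.0% of tested genes), and its highest library (2.53 FPKM) lay below the lowest of Boc (2.65 FPKM).

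Gli1, Ptch1 and Gli3 followed each other over the 6 libraries, whereas Smo did not. The Pearson correlation of log2(FPKM + 1) with Gli1 was 0.94 for Ptch1 and 0.94 for Gli3, and between Ptch1 and Gli3 it was 0.96. With Gli1 it was 0.69 for Gli2, 0.69 for Boc, 0.48 for Cdon, 0.41 for Sufu and -0.19 for Smo. With Ptch1 it was 0.86 for Gas1, 0.83 for Boc, 0.83 for Gli2, 0.51 for Cdon, 0.22 for Sufu and 0.11 for Smo. These values describe 6 libraries that share a cell line and include the near-identical wild type pair. How many of all tested genes reach such correlations was not counted, so they show no tie particular to these genes. Among all tested protein-coding genes outside the Hedgehog genes, the 3 most like Gli1 were Pex2, Zfp26 and Ablim1, each with a correlation of 0.992. The 3 most like Ptch1 were Ip6k1 (0.997), Clip2 (0.997) and Ankrd46 (0.996).

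The promoter windows of Ptch1 and Gli3, which followed each other, and of Sufu, whose correlation with Ptch1 was 0.22, are shown as examples of sequence composition. Each holds 250 bases before and 50 after a transcription start in RefSeq (build GRCm38.p6), 5′ to 3′ on the gene's strand, with CpG dinucleotides in capitals. Ptch1 lies at chr13:63565686-63565985 (minus strand), Gli3 at chr13:15463473-15463772 (plus strand) and Sufu at chr19:46396646-46396945 (plus strand).
Ptch1: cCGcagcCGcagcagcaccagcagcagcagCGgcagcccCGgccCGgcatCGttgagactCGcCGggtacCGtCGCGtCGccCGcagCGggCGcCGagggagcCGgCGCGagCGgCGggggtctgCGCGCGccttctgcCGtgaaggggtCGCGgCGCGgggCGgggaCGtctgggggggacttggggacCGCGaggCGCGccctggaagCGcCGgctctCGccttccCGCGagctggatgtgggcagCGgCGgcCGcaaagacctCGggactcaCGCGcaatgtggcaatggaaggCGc
Gli3: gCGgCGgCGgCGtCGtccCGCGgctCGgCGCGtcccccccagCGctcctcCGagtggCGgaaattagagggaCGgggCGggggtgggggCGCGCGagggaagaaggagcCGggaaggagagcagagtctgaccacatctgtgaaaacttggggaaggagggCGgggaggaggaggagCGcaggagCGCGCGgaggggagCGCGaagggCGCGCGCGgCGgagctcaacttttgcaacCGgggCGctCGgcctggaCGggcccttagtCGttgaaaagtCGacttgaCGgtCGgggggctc
Sufu: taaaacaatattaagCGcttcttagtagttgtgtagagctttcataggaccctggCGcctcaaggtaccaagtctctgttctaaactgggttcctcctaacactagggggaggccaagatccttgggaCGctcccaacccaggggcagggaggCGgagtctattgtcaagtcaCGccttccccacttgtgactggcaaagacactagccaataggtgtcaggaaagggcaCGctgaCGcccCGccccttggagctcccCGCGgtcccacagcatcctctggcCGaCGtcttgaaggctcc
The Ptch1 window held 47 CpG and 76.3% G or C, the Gli3 window 39 CpG and 71.0%, and the Sufu window 12 CpG and 56.3%, beside medians of 7 CpG and 52.7% over all 32851 windows. The windows not shown held 30 CpG for Hhip, 28 for Gli2, 17 for Smo and 3 for Cdon. The correlation with Ptch1 was 0.83 for Gli2, 0.51 for Cdon and 0.11 for Smo. Whether CpG content goes with these correlations was not tested. The Ptch1 and Gli3 starts used here lie 7863 and 488 bases downstream of the outermost GENCODE start of each gene, and the Sufu start coincides with it. For Cdon the start used lies 30948 bases downstream of its outermost GENCODE start. The windows of Ptch1, Gli3 and Cdon are therefore inside their genes and do not describe the outermost start. The GLI binding sequence GACCACCCA was searched on both strands of the windows of 7 of the 9 genes, those of Ptch1, Hhip, Cdon, Smo, Sufu, Gli2 and Gli3. It was found in 0 of these 7, and in 83 of all 32851 windows (0.253%). Allowing 1 other base at the outer positions (NACCACCCA, GNCCACCCA, GACCACCNA or GACCACCCN) gave 0 of 7 and 1210 of all windows (3.68%). A window without these letters says nothing about GLI binding elsewhere at the gene.

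The rest of the pathway was read from lists of 116 further genes, grouped by role. Of these 108 were in the files and 88 were tested. None was called in either direction (smallest limma adjusted p = 0.842), 3 had an unadjusted p below 0.05, 45 had estimates above 0 and 43 below, and the groups did not overlap in 10 (11.4%, beside 11.5% of all tested genes).

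The 2 Hedgehog ligand genes in the files had low transcript levels. Dhh, Desert hedgehog, had 0.950, 0.787 and 1.25 FPKM with overexpression, against 0.869, 0.951 and 0.840 FPKM in wild type, and did not reach the level needed for testing. Ihh, Indian hedgehog, rested on 3, 2 and 1 reads with overexpression, against 1, 0 and 2 reads in wild type. The Shh gene is not analysed here. Of the 10 genes for ligand acylation, release and transport, 8 were in the files and 2 were tested, namely Hhat, the acyltransferase that adds palmitate to the ligand (log2 fold change -0.05, limma adjusted p = 0.942), and Disp1, the transporter that releases it (0.04, limma adjusted p = 0.922).

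Among the further receptors, Gas1 was far above the 8 Hedgehog genes. Gas1, a membrane-anchored co-receptor first known as a growth arrest gene, had 90.4, 190 and 165 FPKM with overexpression, against 191, 195 and 121 FPKM in wild type. Overexpression replicate 1 was the lowest and wild type replicate 3 the next lowest, and the spread within each group was wider than the gap between their means of 148 ± 51.6 and 169 ± 41.3 FPKM (SD, n = 3 each). The log2 fold change of -0.22 had a 95% interval of -0.95 to 0.51 (limma adjusted p = 0.894). Lrp2, an endocytic receptor, rested on 16 reads or fewer in every library and was untested.

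The primary cilium, where SMO and the GLI proteins act, was represented by 37 tested genes of 41 listed. None passed, 14 had estimates above 0 and 23 below, and the median log2 fold change was -0.018. The 2 with the largest absolute change were Fuz, a planar polarity effector needed for ciliogenesis, and Ift81, an intraflagellar transport subunit. Fuz had 1.499, 1.71 and 2.02 FPKM with overexpression, against 2.06, 2.26 and 2.25 FPKM in wild type, without overlap (log2 fold change -0.22, limma adjusted p = 0.842). Ift81 had 1.57, 2.24 and 2.41 FPKM with overexpression, against 2.79, 2.82 and 1.90 FPKM in wild type (-0.19, limma adjusted p = 0.850).

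The kinases and arrestins that act on SMO and GLI were represented by 17 tested genes of 19, with none past the test, 11 estimates above 0 and a median of 0.025. Arrb1, a beta-arrestin, had 4.81, 4.79 and 4.71 FPKM with overexpression, against 5.81, 5.94 and 5.08 FPKM in wild type (log2 fold change -0.19, limma adjusted p = 0.842). Prkaca, a catalytic subunit of protein kinase A, which phosphorylates GLI proteins and restrains the pathway, had 48.3, 48.7 and 45.5 FPKM with overexpression, against 44.1, 44.4 and 38.4 FPKM in wild type (0.17, limma adjusted p = 0.842). In both genes the groups did not overlap, as in 4 of the 17, beside 11.5% of all tested genes.

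All 15 genes of protein turnover in the pathway were tested, with none past the test, 12 estimates above 0 and a median of 0.0074. Rbx1, a RING subunit of cullin ubiquitin ligases, had 77.2, 78.6 and 74.5 FPKM with overexpression, against 66.7, 69.5 and 72.7 FPKM in wild type. Its groups did not overlap, and its log2 fold change was 0.14 (limma adjusted p = 0.842).

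Of 26 described GLI target genes outside the 8, 16 were tested. None passed, 7 had estimates above 0 and 9 below, and the median was -0.052. Vegfa, which encodes an angiogenic growth factor with many regulators beside GLI, had 27.1, 30.9 and 31.8 FPKM with overexpression, against 36.5, 36.0 and 46.9 FPKM in wild type. The groups did not overlap, and the log2 fold change of -0.39 had a 95% interval of -0.67 to -0.12 before adjustment over genes (limma adjusted p = 0.842). Spp1, which encodes osteopontin, had 308, 656 and 603 FPKM with overexpression, against 850, 843 and 366 FPKM in wild type, again with overexpression replicate 1 and wild type replicate 3 lowest (-0.37, limma adjusted p = 0.876). Together with Arrb1 and Vegfa, the third pathway gene with an unadjusted p below 0.05 was Foxf2, a forkhead factor, at 19.5 ± 1.59 FPKM with overexpression and 22.4 ± 0.92 FPKM in wild type (SD, n = 3 each; log2 fold change -0.19, limma adjusted p = 0.842); it is named after its values were seen.

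**Figure D4:**
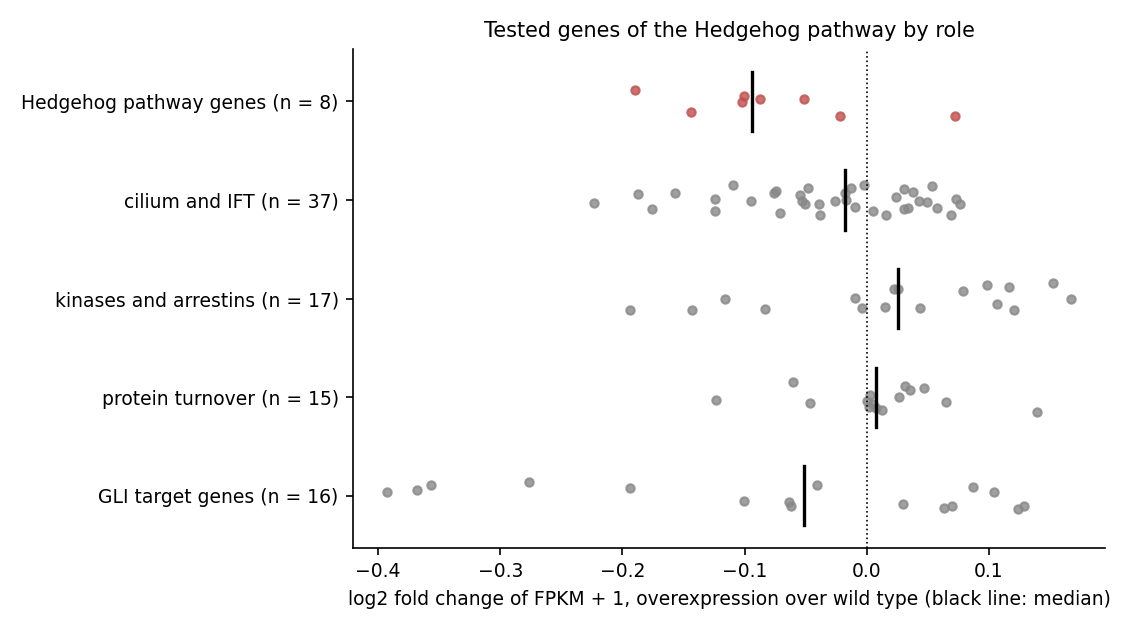
Log2 fold change of FPKM + 1 (horizontal axis), F-CircAE overexpression over wild type, of each tested gene (points) in the Hedgehog pathway genes (red) and in 4 further lists of the pathway by role (grey), with the median of each list as a black line. The medians lie between -0.09 for the 8 Hedgehog pathway genes and 0.025 for the kinases and arrestins, and no point is a gene that passed the test.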

How the data were processed

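RNA of 6 NIH3T3 libraries was treated with DNase I, made into NEBNext Ultra libraries and sequenced as paired ends on an Illumina HiSeq, per the labels' protocols. Groups came from the genotype and replicate numbers from the title. The authors deposited FPKM values for 24938 Ensembl gene IDs per library, per the file headers. The build was mm10, per the submitters' processing notes; which aligner, read counter, strand setting or annotation release was used is not given in the sources used here. Symbols, coordinates and overlaps came from GENCODE M21 (24816 IDs matched), and promoter sequences from RefSeq.

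The Hedgehog genes and the lists were chosen with earlier results of these data known. The main test was limma 3.58.1 in R 4.3.3 on log2(FPKM + 1), with trend and robust moderation and group as the only term, over 12222 genes above 1 FPKM in at least 3 libraries, with Benjamini-Hochberg adjustment over all of them; 12716 genes were not tested. The test was checked on simulated data. Reads were recovered from the steps of the FPKM values, within 0.01 reads, at the GENCODE exon length for 19832 genes and otherwise at the smallest length that gave whole reads (5105 genes, among them Ptch1, Boc, Sufu and Gli1); they cover counting error only. The size factors behind the deposited scaling are not stated.

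All 8 Hedgehog genes are named. Other genes named are the 2 with the largest absolute log2 fold change of each pathway list, the ligands and further receptors, and the 3 most correlated with Gli1 and with Ptch1. Some genes that this rule names are not reported here. Alternatives were 2 other pseudocounts, 2 other filters, 3 rescalings, a replicate block, array weights, averaging wild type replicates 1 and 2, limma-voom (at least 10 reads in 3 libraries) and leaving out each library.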

Additional observations from a re-analysis of the deposited data

How the results depend on the processing

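Of 131 values of the 8 Hedgehog log2 fold changes under the alternatives, 125 kept their direction and their side of the threshold, 5 changed sign and 1 newly passed. The sign changes were at values near 0: Smo was 0.054 with array weights, and leaving out 1 library gave ranges of -0.057 to 0.0026 for Smo, -0.19 to 0.00028 for Ptch1 and -0.0985 to 0.0041 for Gli3. With array weights 2241 genes passed over the whole table and 1 Hedgehog gene, Sufu (-0.18); the cause was not tested. Leaving out 1 library gave 0 to 2 genes over the whole table, 0 to 0 Hedgehog genes past the threshold, and 1 to 3 Hedgehog genes whose groups did not overlap, beside 1921 to 4851 of all 12222 genes. With a filter at 5 FPKM, 3 Hedgehog genes were tested and 0 of them had groups that did not overlap. Under the 3 rescalings 7 of 8 estimates stayed below 0.

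The replicate numbers did not pair the libraries: deviations of same-numbered libraries from their group means correlated at -0.10, 0.08 and 0.0025, and no overexpression library correlated best with its own number. With the replicate block 0 genes passed, 0 of them Hedgehog genes, and 444 genes had an unadjusted p below 0.05. Averaging wild type replicates 1 and 2 left 241 such genes and 0 past adjustment. The intervals of the Hedgehog genes are not adjusted over genes, and the smallest change detectable after adjustment was not measured.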
